A study of Homo sapiens with 22 samples.

Results

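The transcripts of 51 protein-coding genes of the distal long arm of chromosome 6 (6q) were followed in HT1080 cells that express catalytically inactive lysine deacetylases. The genes were given as a list of 51 names, drawn up because chromosome 6 had the lowest median of all chromosomes in KDAC8H143A cells and because FUCA2 fell there, so they were chosen on the measured KDAC8H143A and WT values. For that reason every KDAC8H143A value below is a description of genes selected on it and carries no test. All 51 names matched 1 row each among the 60675 genes of the count table, and all 51 were among the 18480 genes with enough counts for analysis over the 6 groups. By the GENCODE 44 annotation of GRCh38, the genes lay on chromosome 6 between position 113857345, the start of MARCKS, and position 170572870, the end of TBP, in a stretch that holds 738 other annotated genes of the table.

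HT1080 is a human fibrosarcoma line of connective tissue, and all groups shared this background. The 22 libraries, from rRNA-depleted total RNA, comprised 4 of untreated WT cells, 4 from each of the lines KDAC6H216A, KDAC6H611A and KDAC8H143A, and 3 for each inhibitor, from WT cells grown for 2 days with 1 µM Tubastatin A or with 5 µM PCI-34051. The mutations were introduced at the endogenous loci with CRISPR and replace a catalytic histidine of the first (KDAC6H216A) or second (KDAC6H611A) catalytic domain of KDAC6 or of the only such domain of KDAC8 (KDAC8H143A). Edited cells were grown from single colonies, and only KDAC6H216A was a pool of 3 independent lines, so within KDAC6H611A and KDAC8H143A the mutation cannot be told apart from whatever else sets a colony apart. The KDAC8H143A line also carries an unintended extra base in an intron. Tubastatin A is a KDAC6-selective and PCI-34051 a KDAC8-selective inhibitor, and the inhibitor groups were compared with untreated WT cells. The replicates are biological replicates by the methods of the study, and a p-value therefore measures the spread between them and not between independently edited lines.

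KDAC6 is a mostly cytoplasmic enzyme known for deacetylating alpha-tubulin, and KDAC8 is known for deacetylating the cohesin subunit SMC3. Genes of a chromosome arm are linked by position and need not share a function: the list holds a cytokine receptor, Hippo and stress kinases, endosomal sorting proteins, membrane-to-cytoskeleton linkers, transcription factors and a chaperonin subunit. In bulk RNA, fewer cells that express a gene and less RNA per cell cannot be told apart, and the files hold RNA only, with no measure of the copies of a chromosome arm.

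Promoter windows from RefSeq (GRCh38.p14), running from 250 bases before to 50 bases after a start site, are shown for the 3 members that were lowest in KDAC8H143A (IFNGR1, FUCA2 and VTA1), for the highest one (TPD52L1) and for MARCKS, which was switched between groups. They are printed 5′ to 3′ on the strand of the gene, and capitals mark the GC box, GGGCGG or its complement CCGCCC, a common motif of housekeeping promoters. The windows are chr6:137219336-137219635 (minus strand, IFNGR1), chr6:143511671-143511970 (minus strand, FUCA2), chr6:142147013-142147312 (plus strand, VTA1), chr6:125153996-125154295 (plus strand, TPD52L1, at a start site inside the annotated gene) and chr6:113857095-113857394 (plus strand, MARCKS).
IFNGR1: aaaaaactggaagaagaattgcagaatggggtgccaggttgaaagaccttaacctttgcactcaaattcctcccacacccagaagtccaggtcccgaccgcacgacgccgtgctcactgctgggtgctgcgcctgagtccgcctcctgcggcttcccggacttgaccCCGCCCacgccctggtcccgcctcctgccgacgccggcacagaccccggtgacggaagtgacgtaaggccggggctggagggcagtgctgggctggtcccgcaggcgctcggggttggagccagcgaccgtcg
FUCA2: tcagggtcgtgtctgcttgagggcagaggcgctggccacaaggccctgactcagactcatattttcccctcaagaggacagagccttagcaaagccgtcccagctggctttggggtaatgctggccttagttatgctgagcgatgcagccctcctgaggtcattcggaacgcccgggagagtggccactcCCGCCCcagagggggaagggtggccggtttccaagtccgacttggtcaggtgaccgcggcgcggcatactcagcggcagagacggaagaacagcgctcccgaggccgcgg
VTA1: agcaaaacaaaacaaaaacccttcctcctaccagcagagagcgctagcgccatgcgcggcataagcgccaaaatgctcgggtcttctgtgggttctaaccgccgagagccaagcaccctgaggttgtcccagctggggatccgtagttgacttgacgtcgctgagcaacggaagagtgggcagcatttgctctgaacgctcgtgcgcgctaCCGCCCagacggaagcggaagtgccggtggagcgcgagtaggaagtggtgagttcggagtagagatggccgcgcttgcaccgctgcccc
TPD52L1: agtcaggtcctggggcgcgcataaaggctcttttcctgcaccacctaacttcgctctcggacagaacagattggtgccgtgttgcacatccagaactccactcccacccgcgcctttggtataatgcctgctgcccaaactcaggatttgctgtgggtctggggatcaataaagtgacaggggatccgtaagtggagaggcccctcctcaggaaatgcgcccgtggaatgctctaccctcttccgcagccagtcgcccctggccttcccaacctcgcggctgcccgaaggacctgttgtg
MARCKS: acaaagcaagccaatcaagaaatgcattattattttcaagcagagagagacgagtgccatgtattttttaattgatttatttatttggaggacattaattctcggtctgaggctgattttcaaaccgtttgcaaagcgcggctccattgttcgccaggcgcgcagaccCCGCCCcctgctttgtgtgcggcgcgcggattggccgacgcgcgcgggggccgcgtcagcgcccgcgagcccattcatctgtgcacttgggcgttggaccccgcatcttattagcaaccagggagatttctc
IFNGR1 has a further window, and of its windows the one nearest to the annotated gene start is shown. The GC box stood once in each of the IFNGR1, FUCA2, VTA1 and MARCKS windows and was not found in that of TPD52L1. RefSeq windows were found for 48 of the 51 members, 88 windows in all, and 50 of them (56.8%) held the GC box on either strand, beside 45.0% of all 35116 windows. The members' windows were also richer in GC (median 64.2%, beside 58.7% for all windows), so nothing is read from that difference. The CCAAT box (CCAAT) was found in 33.0% of the members' windows and 34.6% of all windows, and the TATA box (TATAAA) in 11.4% and 11.5%. These shares describe letters in a window, and binding was not measured.

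Library depth ran from 5248953 to 29862665 counts, and the inhibitor libraries were the deepest. Mitochondrial rRNA took 20.8 to 23.9% of the counts in WT libraries, 0.195 to 15.1% in KDAC6H216A and 0.173 to 38.0% in KDAC6H611A, but at most 0.0259% in KDAC8H143A, 0.00287% in Tubastatin A and 0.00541% in PCI-34051 libraries. This share was below that of every WT library in all libraries of 4 of the 5 compared groups, and only that of KDAC6H611A overlapped WT. Fits without the mitochondrial genes are given below for KDAC8H143A and the inhibitors. Beyond those, the part of this share in the results was not tested. Levels are given as CPM, counts scaled to a common library total by edgeR's TMM factors, which set the libraries to a common level over most genes. VIM, the intermediate filament of mesenchymal cells, was at 2080 to 4680 CPM, and of 8 mesenchymal markers only S100A4 was near 0 (0 to 3.26 CPM). The summed level of the 8 was 5540 to 6380 CPM in WT, 4220 to 7020 CPM in KDAC6H216A, 3360 to 5430 CPM in KDAC6H611A, 3500 to 4570 CPM in KDAC8H143A, 7780 to 8230 CPM with Tubastatin A and 8490 to 8800 CPM with PCI-34051. It overlapped WT only in KDAC6H216A, and so moved with the other 4 comparisons, in which its part was not tested. Summed over their lists, epithelial markers reached 0.525 CPM at most, and endothelial markers were at 1.14 to 3.70 CPM in KDAC8H143A and 0.631 to 0.874 CPM in WT libraries. HDAC8, the gene of KDAC8, was at 12.8 ± 0.816 CPM (SD, n = 4) in WT and 12.6 ± 1.44 CPM (SD, n = 4) in KDAC8H143A. The point mutation leaves the transcript in place, so this level does not check the genotype. One KDAC6H216A library, replicate 1, stood apart from the other 3 of its group, and results for this group are given with and without it.

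In KDAC8H143A cells nearly all of the listed genes were lower than in WT cells, and for most of them every KDAC8H143A library was below all libraries of the other groups. Of the 50 members with enough counts in this comparison, 43 were called lower and 0 higher in the fit across all genes (edgeR, adjusted p below 0.01), where 26.9% of all 16101 genes were called lower and 31.6% higher. Since this contrast chose the genes, nothing is read from that difference. The median log2 fold change of the 50 members was -1.18, beside 0.08 for all genes, and the members ranged from -2.74 (IFNGR1) to 0.33 (TPD52L1). Summed over the 51 genes, the level was 3500, 3670, 3720 and 3540 CPM in the WT libraries and 1720, 1820, 1690 and 1640 CPM in the KDAC8H143A libraries, 0.476 times the WT mean. The other sums were 3950 ± 372 CPM in KDAC6H216A (SD, n = 4), 3270 ± 245 CPM in KDAC6H611A (SD, n = 4), 4150 ± 33.4 CPM with Tubastatin A (SD, n = 3) and 4060 ± 60.3 CPM with PCI-34051 (SD, n = 3), so KDAC8H143A stood below every other library. For 41 of the 51 members, all 4 KDAC8H143A libraries were below all 18 others, which held for 14.3% of the 18480 genes kept. KDAC8H143A had the lowest mean of the 6 groups for 45 members and for 35.0% of the genes kept.

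**Figure D1:**
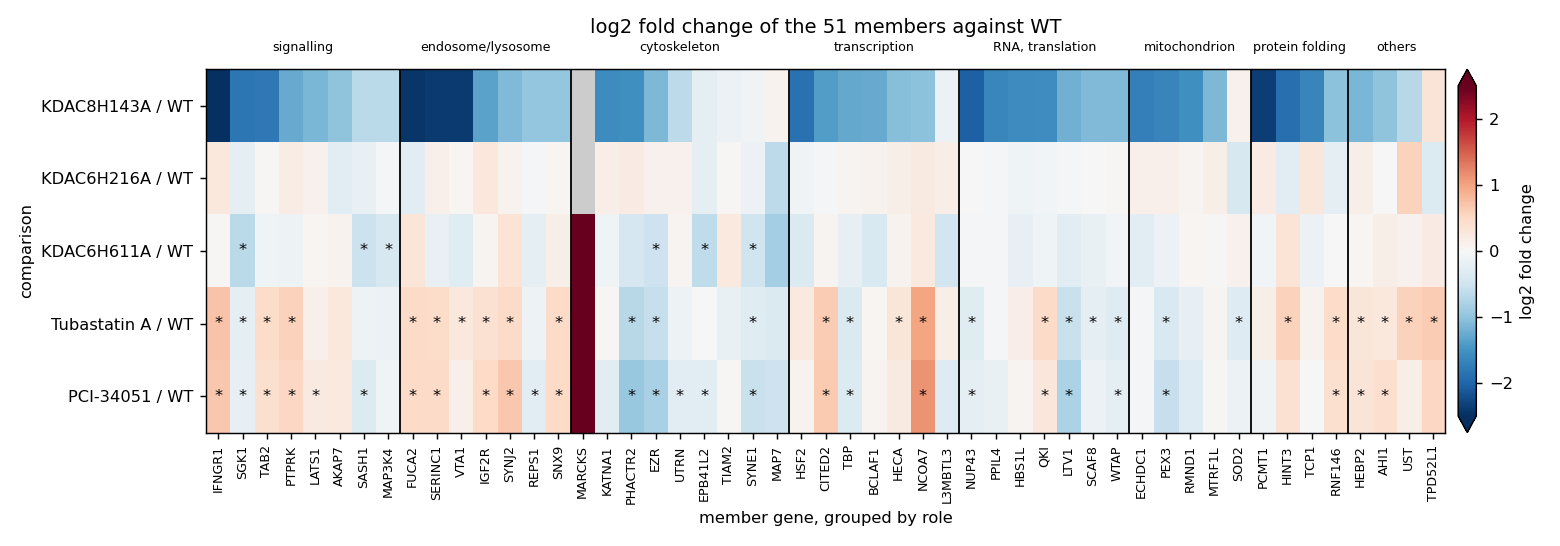
Log2 fold change against WT (colour, cut at -2.5 and 2.5) of the 51 members (columns, grouped by role) in the 5 comparisons (rows). Asterisks mark calls at an adjusted p below 0.01 in edgeR and are left off the KDAC8H143A row, on which the genes were chosen, and off MARCKS, and grey marks MARCKS where it was not tested; the KDAC8H143A row is blue for 47 of 50 genes, while the KDAC6H216A row is pale.

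The receptors, kinases and adaptors of the list were all lower in KDAC8H143A (8 of 8 called, median log2 fold change -1.20). IFNGR1, the ligand-binding chain of the interferon gamma receptor, was at 12.6, 15.6, 12.8 and 12.3 CPM in WT libraries and at 1.5, 2.71, 2.28 and 0.98 CPM in KDAC8H143A libraries. The ranges lay far apart, and the log2 fold change of -2.74 ± 0.26 (SE) was the lowest of all members. SGK1, a kinase induced by serum and glucocorticoids, was at 99.1 to 109 CPM in WT and 23 to 34.2 CPM in KDAC8H143A libraries (log2 fold change -1.81 ± 0.13, SE). TAB2, an adaptor of the kinase TAK1, was at -1.78, PTPRK, a receptor tyrosine phosphatase, at -1.26, LATS1, the Hippo kinase that phosphorylates YAP, at -1.15 and AKAP7, an anchor of protein kinase A, at -1.0. SASH1, a scaffold protein, and MAP3K4, a kinase upstream of JNK, both at -0.67, were the least changed of this group.

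Endosomal, lysosomal and membrane proteins were also lower throughout (7 of 7 called, median -1.34). FUCA2, a secreted alpha-L-fucosidase and the gene named in the choice of the list, was at 38.7, 44.9, 44.7 and 40.0 CPM in WT and at 6.09, 11.3, 6.26 and 5.96 CPM in KDAC8H143A libraries, a log2 fold change of -2.43 ± 0.19 (SE). Replicate 2 of KDAC8H143A was the highest of its group and still under every WT library. VTA1, a regulator of the ESCRT-associated ATPase VPS4, showed the same order, with 47.6, 48.9, 51 and 44 CPM in WT and 6.76, 13.2, 7.40 and 7.43 CPM in KDAC8H143A libraries, and a log2 fold change of -2.39 ± 0.19 (SE). SERINC1, a multipass membrane protein, was at -2.39, IGF2R, the receptor that carries lysosomal enzymes, at -1.34, the phosphoinositide phosphatase SYNJ2 at -1.10, and the endocytic proteins SNX9 and REPS1 at -0.96 each.

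Protein folding and repair genes were called lower in 4 of 4 cases (median -1.77): PCMT1, which repairs damaged aspartate residues, at -2.35, HINT3, a nucleotide hydrolase, at -1.88, TCP1, a subunit of the cytosolic chaperonin, at -1.65 and the ubiquitin ligase RNF146 at -1.03. Genes of RNA processing, translation and the nuclear pore were called lower in 7 of 7 cases (median -1.55), from -2.05 for the nuclear pore gene NUP43 to -1.11 for SCAF8, a binder of RNA polymerase II, and WTAP, a subunit of the m6A writer. Between them stood PPIL4, a nuclear cyclophilin, at -1.64, HBS1L, a ribosome rescue factor, at -1.58, the RNA-binding protein QKI at -1.55 and LTV1, an assembly factor of the small ribosomal subunit, at -1.21. The annotated spans of NUP43 and PCMT1 overlap over 222 bases on opposite strands, so part of their counts may be mixed where strand was not used. Transcription and chromatin genes were called lower in 6 of 7 cases (median -1.26): the heat shock factor HSF2 at -1.86, CITED2, a partner of CBP, at -1.39, TBP, the TATA-binding protein, at -1.27, BCLAF1 at -1.26, HECA at -1.06 and NCOA7, a nuclear receptor coactivator, at -1.02, with L3MBTL3, a methyl-lysine reader, at -0.15 (0.34 with a correction for GC content and transcript length).

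In the group of mitochondrial and peroxisomal genes, where the metabolite repair enzyme ECHDC1 was also placed, 4 of 5 were called lower (median -1.54). ECHDC1 was at -1.70 and PEX3, needed to build the peroxisome membrane, at -1.65. RMND1, needed for mitochondrial translation, was at -1.54 and MTRF1L, a mitochondrial release factor, at -1.12. SOD2, the mitochondrial superoxide dismutase, was the exception, with 335, 277, 265 and 295 CPM in WT and 333, 340, 289 and 265 CPM in KDAC8H143A libraries. The ranges overlapped and the log2 fold change was 0.11 ± 0.12 (SE). The annotated spans of SOD2 and WTAP, introns included, overlap over 30735 bases on opposite strands. The overlap of their transcripts was not measured, so part of their counts may be mixed where strand was not used. The 2 genes differed in this comparison (0.11 and -1.11).

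Of the role groups, the cytoskeletal genes had the smallest share called lower, 4 of 8 (median -0.44). With the GC and length correction 5 of 8 were called lower (median -0.51). KATNA1, the severing subunit of katanin, was at -1.57, PHACTR2, which binds actin and protein phosphatase, at -1.54, EZR, the membrane-to-actin linker ezrin, at -1.13 and the dystrophin relative UTRN at -0.65. EPB41L2, a membrane skeleton protein (-0.23), TIAM2, a Rac exchange factor (-0.15), SYNE1, the nuclear envelope linker nesprin (-0.08), and MAP7, a microtubule-associated protein (0.08), were not called without that correction. With it they were at -0.15, -0.31, -0.48 and 0.31. MAP7 was at 2.90, 3.12, 4.17 and 3.47 CPM in WT and 3.84, 2.86, 3.99 and 3.43 CPM in KDAC8H143A libraries, which overlapped. TIAM2 and SCAF8 overlap over 1548 bases on the same strand. Of the remaining genes, HEBP2, a haem-binding protein (-1.15), AHI1, a protein of the cilium base (-1.01), and UST, a sulfotransferase (-0.69), were called lower. TPD52L1, a coiled-coil protein of membrane traffic, was at 5.17, 4.62, 3.91 and 3.76 CPM in WT and 5.67, 5.04, 4.41 and 6.04 CPM in KDAC8H143A libraries, overlapping, with a log2 fold change of 0.33 ± 0.20 (SE).

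**Figure D2:**
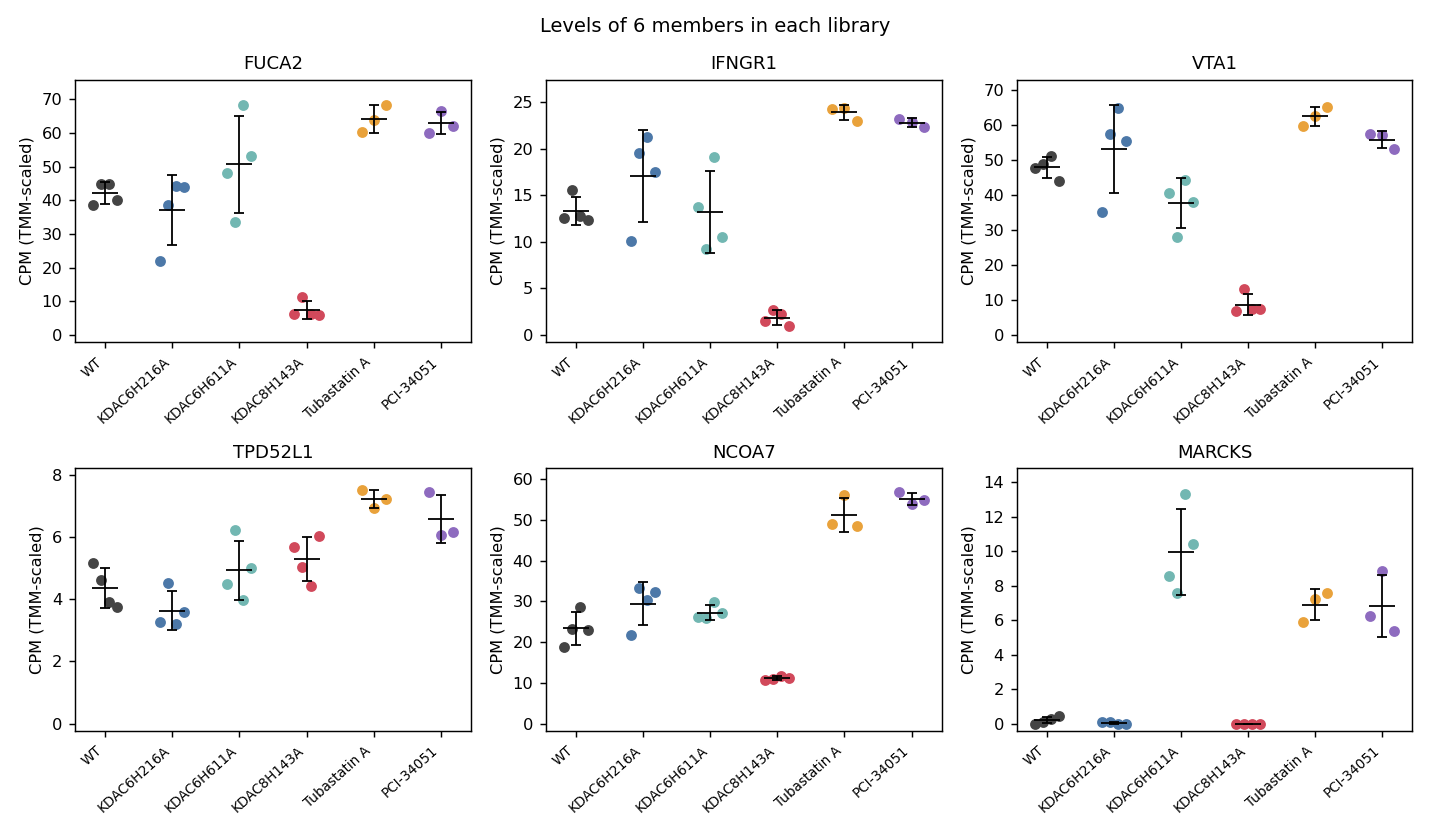
TMM-scaled CPM (vertical axes, linear) of 6 members in each library, by group; points are libraries, the horizontal mark is the mean and the bar the SD (n = 4, or 3 for the inhibitor groups). FUCA2, IFNGR1 and VTA1 sit between 0.98 and 13.2 CPM in KDAC8H143A and above 9 CPM in every other group, while MARCKS is near 0 in WT, KDAC6H216A and KDAC8H143A and between 5.39 and 13.3 CPM elsewhere.

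The label of the list names the distal arm, but the low levels in KDAC8H143A were not confined to it. Against WT, protein-coding genes of proximal 6q, between the centromere and MARCKS, had a median log2 fold change of -1.39 (121 genes, 82.6% called lower), and the other protein-coding genes of the distal stretch a median of -1.18 (115 genes, 67.8% called lower). On the short arm (6p) the median was 0.09 (377 genes, 25.7% called lower) and on all other chromosomes -0.03 (12002 genes, 30.8% called lower). Each 10 Mb bin of 6q with at least 10 protein-coding genes, 10 in all, had a median between -1.69 and -0.81, and, once corrected for GC content and transcript length, between -1.11 and -0.45. Bins of 6p ran from -0.43 to 0.36, and from -0.38 to -0.07 after the correction. Of the 279 other bins of the genome, 4 had a corrected median under the highest 6q bin, the lowest being 150 to 160 Mb of chromosome 7 (33 genes, -0.84), and 18 did so without the correction. Near the centromere, PRIM2, a DNA primase subunit and the last tested gene of the short arm, was at -0.98 (-0.63 after the correction), and PTP4A1, a phosphatase and the first of the long arm, at -1.68 (-0.84). Over the whole of chromosome 6 the median was -0.49 (663 genes), next to -0.46 for chromosome 4, -0.39 for chromosome 18 and -0.35 for chromosome 13. After the correction chromosome 6 was at -0.48 and chromosome 22 came next with -0.21 (303 genes), while chromosome 4 was at -0.10. The list is therefore best called by its position, as part of an arm that was low along its length in KDAC8H143A.

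**Figure D3:**
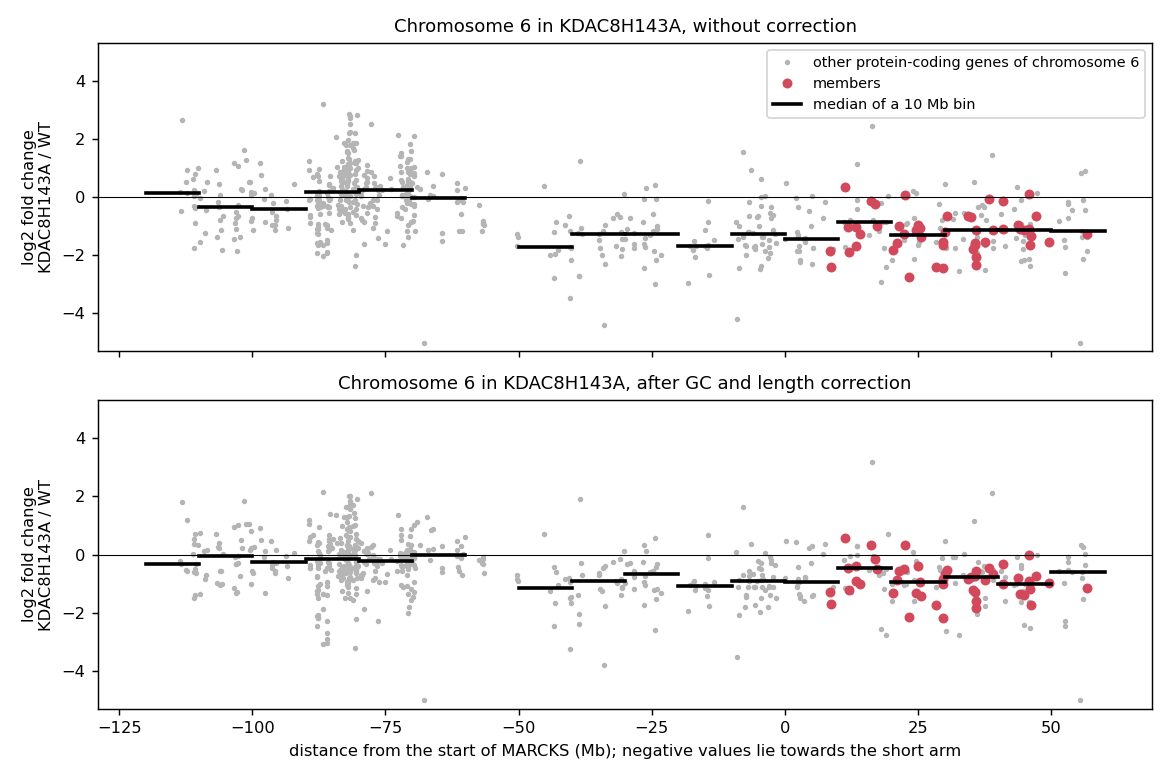
Log2 fold change of KDAC8H143A against WT (vertical axis) for protein-coding genes along chromosome 6, by distance from the start of MARCKS in Mb (horizontal axis), without (top) and with (bottom) a correction for the GC content and length of transcripts. Red points are members, grey points other genes, black bars medians of 10 Mb bins counted from MARCKS with at least 10 genes, and values beyond 5 are drawn at 5; bars of the long arm lie between -1.74 and -0.87 (top) and -1.14 and -0.47 (bottom), and those of the short arm between -0.43 and 0.24 and between -0.32 and -0.02.

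Within each library, the median log2 level of the members relative to the mean of WT ran from -1.30 to -1.15 in KDAC8H143A and from -0.07 to 0.06 in WT. The corresponding medians for protein-coding genes of 6p were 0 to 0.15, and for protein-coding genes of other chromosomes -0.12 to -0.02, in KDAC8H143A. Elsewhere the members' medians ran from -0.16 to 0.23 in KDAC6H216A, -0.39 to 0.07 in KDAC6H611A, 0.18 to 0.22 with Tubastatin A and 0.06 to 0.19 with PCI-34051. Every KDAC8H143A library thus lay below every library of the other groups.

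**Figure D4:**
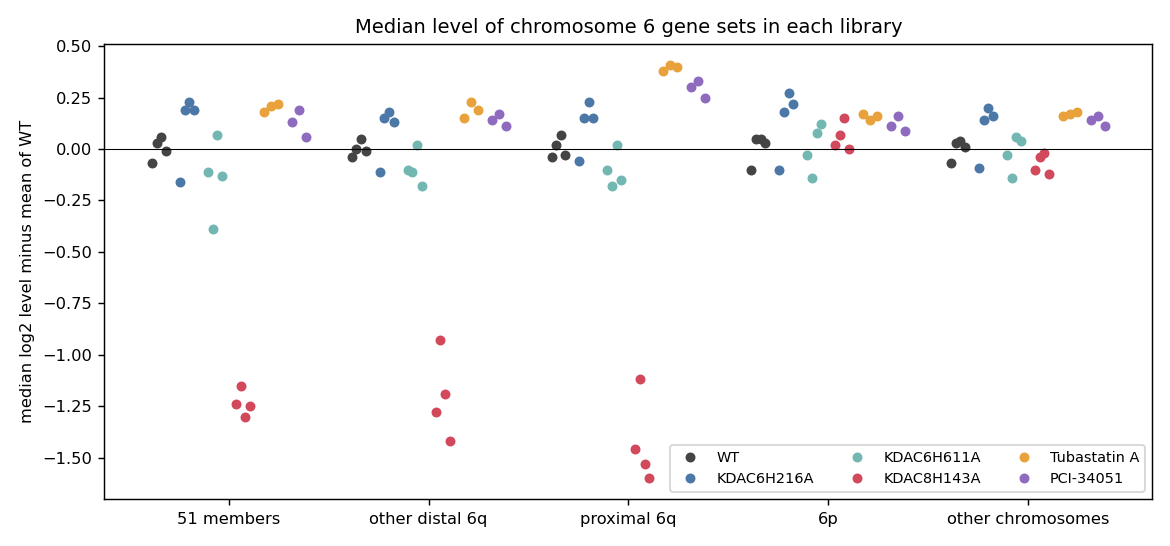
Median log2 level relative to the mean of the WT libraries (vertical axis) for the 51 members and for the other protein-coding genes of the distal stretch, proximal 6q, 6p and all other chromosomes, each point 1 library and each colour 1 group. In KDAC8H143A the members sit between -1.30 and -1.15 and the 6p genes between 0 and 0.15.

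Base composition moved with the fold changes in KDAC8H143A. The transcripts of the members had a GC content of 36.3 to 50.7% (median 41.8%), under the median of 47.9% for all genes tested. Across the 50 members, the log2 fold change rose with GC content (Pearson 0.44, Spearman 0.48, over genes measured in the same libraries), and not after the correction (-0.04 and -0.07). The correction takes out fitted trends with GC content and length, so this loss is largely built in and nothing is read from it. With log2 transcript length the relation was 0.40 by both measures, and 0.22 (Pearson) and 0.23 (Spearman) after the correction. With the correction, 40 members were called lower and 0 higher, and the median was -0.89. Of all 16101 genes, 4364 (27.1%) were called lower and 3474 higher with the correction, and their median was -0.04. FUCA2 was then at -2.17, IFNGR1 at -2.15, VTA1 at -1.72 and NCOA7 at -0.45. Removing the mitochondrial genes before scaling left 43 calls and a median of -1.18. The part of RNA quality or of library preparation in these values was not tested.

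Partners of the members that lie mostly on other chromosomes were examined beside them, again as a description. Of 34 partners with enough counts, 23 were called lower and 6 higher in KDAC8H143A, beside 26.9% and 31.6% of all genes, with a median log2 fold change of -0.60. All 7 other chaperonin subunits, partners of TCP1, were called lower (-1.26 for CCT8 to -0.57 for CCT7). Among genes of interferon gamma signalling beside IFNGR1, IFNGR2 (-0.48) and JAK1 (-0.50) were called lower, and JAK2 was at -0.34, and at 0.45 with the GC and length correction. MAP3K7, which codes for TAK1 and itself lies on proximal 6q, was at -1.99 (-1.32 corrected), while its adaptor TAB1, on chromosome 22, was at 1.11 (0.17 corrected). Of 6 subunits or partners of the m6A writer beside WTAP, 3 were called lower and 2 higher (median -0.28, and 0.04 corrected). FUCA1, the lysosomal fucosidase on chromosome 1, was at -1.35. With the GC and length correction the median of the partners was -0.42.

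The list was not chosen on the libraries of the other mutant lines or of the inhibitors, and those groups were tested against WT. All 4 comparisons share the 4 WT libraries, which did take part in the choice of the list, and none was compared with another. In KDAC6H216A, 0 of 50 members passed the threshold (edgeR, adjusted p below 0.01), where 0.834% of all 14500 genes did, and the median log2 fold change was 0.04 (all genes 0.00). At an unadjusted p below 0.05 there were 6 members, 12% of them, beside 13.4% of all genes. DESeq2 called SGK1 lower (log2 fold change -0.24, adjusted p = 0.00511). The largest values were -0.65 for MAP7 and 0.57 for UST (edgeR adjusted p = 0.292 and 0.0598).

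Leaving out KDAC6H216A replicate 1 raised the count to 12 members, 4 lower and 8 higher, where 13.8% of 14638 genes were called lower and 12.2% higher in the same 7 libraries. SOD2 was the lowest of them (log2 fold change -0.87 ± 0.08, SE, edgeR adjusted p = 2.55e-07). Its level was 194, 160 and 176 CPM in replicates 2 to 4 and 389 CPM in replicate 1, on the other side of the WT range of 265 to 335 CPM. EPB41L2 (-0.33), RNF146 (-0.34) and SGK1 (-0.26) were the other members called lower. UST was the highest (0.67), followed by IFNGR1 (0.41), TCP1 (0.40) and IGF2R (0.37), and PHACTR2, PCMT1, PTPRK and SERINC1 were called higher at 0.22 to 0.29. FUCA2 was at 22 CPM in replicate 1 and 38.5, 44.1 and 44 CPM in the others, and was not called (-0.14 without replicate 1).

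In KDAC6H611A, 7 of 51 members were called against WT, 6 lower and 1 higher, where 6.24% of 14725 genes were called lower and 6.08% higher. The median log2 fold change was -0.07 (all genes 0.03). The 1 member on the higher side was MARCKS, a protein kinase C substrate that links the membrane to actin. It passed the filter on low counts only through the group where it is high, here and with both inhibitors, so its values are a description, its call is not used as a test, and 6 lower and 0 higher of the other 50 members were called. It had 0, 1, 2 and 3 counts in the WT libraries and 65, 45, 147 and 89 counts in the KDAC6H611A libraries, which is 7.56 to 13.3 CPM. Taking 3 counts per library as the floor, a mean of 0.452 CPM in WT, its mean was at least 22-fold higher. The lowest KDAC6H611A library was 12.2 times the highest WT floor. SGK1 was at 61.9, 67.2, 74.1 and 55.1 CPM in KDAC6H611A, below the WT range of 99.1 to 109 CPM (log2 fold change -0.68 ± 0.10, SE, edgeR adjusted p = 4.94e-04). EPB41L2 was at 125, 130, 131 and 115 CPM in WT and 77.9, 84.7, 76.0 and 79.4 CPM in KDAC6H611A (log2 fold change -0.63 ± 0.09, SE, edgeR adjusted p = 4.55e-04). SASH1 was at 61.4, 61.9, 62.4 and 63.0 CPM in WT and 38.6, 40.3, 45.7 and 44.7 CPM in KDAC6H611A (log2 fold change -0.53 ± 0.08, SE, edgeR adjusted p = 6.77e-04). In these 3 genes no KDAC6H611A library reached the WT range. They were picked as called members with the largest change and the share of all genes so separated is not given. The separation is therefore not read as a result about the list.

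EZR (-0.52), SYNE1 (-0.50) and MAP3K4 (-0.41) were the other members called lower in KDAC6H611A. Without KDAC6H611A replicate 1 these 3 lost their calls and 4 members were left. EZR also fell short without WT replicate 2, 3 or 4, and MAP3K4 without any of the WT libraries or KDAC6H611A replicate 4. Without KDAC6H611A replicate 2, 11 members were called. With scaling by total count alone, the calls split into 0 lower and 1 higher, which was MARCKS, so that none of the other members was called. FUCA2 was at 48.1, 33.4, 68.2 and 53.0 CPM, around the WT range, and was not called (0.30 ± 0.15, SE), and IFNGR1, at 13.8, 9.24, 19.1 and 10.5 CPM, was at 0.02 ± 0.20 (SE).

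In WT cells treated with Tubastatin A, 31 of 51 members were called, 20 higher and 11 lower, where 29.3% of 15246 genes were called higher and 28.6% lower. Leaving aside MARCKS, 30 of 50 were called, 19 higher and 11 lower. The median log2 fold change was 0.12 (all genes 0.00). MARCKS was at 184, 219 and 231 counts, 5.88 to 7.59 CPM. Its mean was 15.3 times the mean WT floor, and its lowest library 9.48 times the highest. NCOA7 was at 18.8, 23.3, 28.7 and 22.9 CPM in WT and 49.1, 56.1 and 48.4 CPM with Tubastatin A (log2 fold change 0.99 ± 0.08, SE, edgeR adjusted p = 5.16e-09). IFNGR1 rose to 24.3, 24.4 and 23 CPM, above all WT libraries (log2 fold change 0.72 ± 0.09, SE, edgeR adjusted p = 5.30e-07). PHACTR2 fell from 105, 105, 113 and 102 CPM in WT to 71.7, 72.2 and 68.7 CPM (log2 fold change -0.70 ± 0.05, SE, edgeR adjusted p = 2.68e-10). FUCA2 was at 60.2, 63.8 and 68.3 CPM, above every WT library (log2 fold change 0.48 ± 0.06, SE, edgeR adjusted p = 4.13e-07).

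The role groups were drawn up with earlier results known, so their counts are a description, beside 29.3% of all genes called higher with Tubastatin A and 28.6% lower. By role, 6 of the 7 endosomal and membrane genes were higher and 0 lower, from FUCA2 (0.48), SYNJ2 (0.47), SNX9 (0.47) and SERINC1 (0.46) to VTA1 (0.27), with REPS1 at -0.12. All 4 genes of mixed function, TPD52L1 (0.63), UST (0.57), HEBP2 (0.30) and AHI1 (0.26), were higher. With the GC and length correction, 5 endosomal genes were called higher and 1 lower, and 2 of the 4 genes of mixed function higher. Signalling genes split into 3 higher, IFNGR1, PTPRK (0.58) and TAB2 (0.45), and 1 lower, SGK1 (-0.22). Of the RNA and translation genes, 4 were lower, LTV1 (-0.56), WTAP (-0.33), NUP43 (-0.31) and SCAF8 (-0.25), and QKI (0.48) was higher. EZR (-0.58), PHACTR2 and SYNE1 (-0.31) were the cytoskeletal genes called lower. Among transcription genes NCOA7, CITED2 (0.64) and HECA (0.30) were higher and TBP (-0.37) lower. PEX3 (-0.38) and SOD2 (-0.32) were lower, and HINT3 (0.57) and RNF146 (0.45) higher.

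With PCI-34051, 29 of 51 members were called, 16 higher and 13 lower, where 25.5% of 15346 genes were called higher and 25.6% lower, and the median log2 fold change was 0.03 (all genes -0.01). Leaving aside MARCKS, 28 of 50 were called, 15 higher and 13 lower. MARCKS was at 167, 278 and 153 counts, 5.39 to 8.85 CPM. Its mean was 15.1 times the mean WT floor, and its lowest library 8.69 times the highest. NCOA7 was at 56.8, 53.9 and 55.0 CPM, all above the WT range of 18.8 to 28.7 CPM (log2 fold change 1.12 ± 0.08, SE, edgeR adjusted p = 2.28e-09). PHACTR2 was at 59.8, 60.3 and 58.3 CPM (log2 fold change -0.94 ± 0.05, SE, edgeR adjusted p = 7.07e-11). EZR was at 205, 256, 246 and 229 CPM in WT and 144, 144 and 139 CPM with PCI-34051 (log2 fold change -0.82 ± 0.06, SE, edgeR adjusted p = 4.10e-09). The libraries of these 3 genes did not overlap with those of WT. These genes too were picked by the size of their change, without the share of all genes so separated, and nothing is read from it. FUCA2, at 60.1, 66.5 and 62.1 CPM, was at 0.48 ± 0.06 (SE) on the log2 scale, and IFNGR1, at 23.2, 22.9 and 22.3 CPM, was at 0.67 ± 0.09 (SE), so that both lay above WT with the KDAC8-selective inhibitor and below WT in the KDAC8H143A line.

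With PCI-34051, where 25.5% of all genes were called higher and 25.6% lower, counts by role are again a description. The endosomal group held 5 higher genes, from SYNJ2 at 0.67 to FUCA2 and SERINC1 at 0.48, and REPS1 lower at -0.28. The cytoskeletal group held 5 lower, PHACTR2, EZR, SYNE1 (-0.55), EPB41L2 (-0.29) and UTRN (-0.27). Signalling genes were higher in 4 cases, IFNGR1, PTPRK (0.52), TAB2 (0.41) and LATS1 (0.22), and lower in 2, SASH1 (-0.34) and SGK1 (-0.21). LTV1 (-0.79), WTAP (-0.24) and NUP43 (-0.22) were lower among RNA genes, with QKI higher at 0.29. NCOA7 and CITED2 (0.65) were higher and TBP (-0.34) lower among transcription genes. PEX3 (-0.58) was lower, and RNF146 (0.41), AHI1 (0.42) and HEBP2 (0.33) were higher. Of 34 partners of the members, 10 were called lower and 13 higher with Tubastatin A, beside 28.6% and 29.3% of all genes, and 11 and 11 with PCI-34051, beside 25.6% and 25.5%. In KDAC6H611A 3 were called lower and 0 higher, beside 6.24% and 6.08%, and in KDAC6H216A 0 in either direction, beside 0.834%.

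The split of the inhibitor calls depended on the scaling. With the mitochondrial genes removed before scaling, and MARCKS not set aside, 21 members were higher and 11 lower with Tubastatin A. With PCI-34051 the split was then 17 higher and 13 lower. The low mitochondrial rRNA share and the greater depth moved with the treatment, and beyond those fits their part was not tested. With total count alone, and with MARCKS included, 37 members were higher and 3 lower with Tubastatin A and 33 higher and 4 lower with PCI-34051, as that scaling moved the median of all genes to 0.35 and 0.38. With the GC and length correction, again with MARCKS included, the splits were 17 higher and 18 lower, and 13 higher and 15 lower. All genes moved the same way. With Tubastatin A, 4068 were then called higher and 4602 (30.2%) lower, and with PCI-34051, 3626 higher and 4271 (27.8%) lower. Under that correction the log2 fold changes of MARCKS, NCOA7, IFNGR1 and FUCA2 kept their positive sign, and those of PHACTR2 and EZR their negative sign, with both inhibitors. With the correction PHACTR2 was at -0.90 and -1.11 and NCOA7 at 0.83 and 0.99 for Tubastatin A and PCI-34051. In one fit over all 6 groups, 14 and 12 members were called. Shares of all genes called are not given for that fit, for total count or for the fits without mitochondrial genes. Those counts are therefore not read as results about the members.

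MARCKS had 0 counts in all 4 KDAC8H143A libraries, a level under 3 counts per library, and 0 or 1 count in the KDAC6H216A libraries. Since WT was also at or under the floor, no fold change is given for either line. With MARCKS placed at the ratio of its mean to the mean WT floor, the medians over the list were the same. They were -0.07, 0.12 and 0.03 in KDAC6H611A, Tubastatin A and PCI-34051.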

How the data were processed

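RNA sequencing of HT1080 cells was analysed from a table of expected counts per gene that the authors deposited. Per the submitters' processing notes, reads were handled with Trimmomatic 0.39, Bowtie2 2.4.5 and RSEM 1.3.3 on GRCh38, and DESeq2 1.38.2 was used for tests. The annotation release is not given in the sources used here. Expected counts were rounded, and 22 members had counts that were not whole. Each group was compared with WT in edgeR 4.0.16 (filterByExpr, TMM, quasi-likelihood test, Benjamini-Hochberg over all genes tested, threshold 0.01), with DESeq2 1.42.0 as an alternative. The fits were tested on simulated data. Positions and transcript GC content came from GENCODE 44 (56558 genes matched by identifier, SOD2 by symbol, so that SOD2 received the mean of the GC and length correction, made with mgcv 1.9.3). Samples were grouped by title and genotype labels, and 0 columns were left unused.

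The members, role groups and partner lists were chosen with earlier results of these data known. Values per library are given for FUCA2, the 3 members lowest and highest in KDAC8H143A and, in each other comparison, up to 4 called members with the largest change. Other genes are named within role groups, and 1 gene counted among the partners is not reported here by name. Same-numbered replicates were not treated as pairs, because their deviations correlated at -0.075 to 0.204 and not all above 0.1. Intervals were not computed, and the floor of 3 counts covers counting error only.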

Additional observations from a re-analysis of the deposited data

Results flagged for a closer look

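In groups of 4 libraries, the level of each member given by library, and the summed level, was examined for a library far from the other 3. In 55 such groups of values, 5 stood out by Dixon's criterion, and chance gives about 1 in 20. KDAC8H143A replicate 2 was high for FUCA2 (11.3 CPM, others 5.96 to 6.26 CPM) and for VTA1 (13.2 CPM, others 6.76 to 7.43 CPM), and in both genes it stayed below all WT libraries. KDAC6H216A replicate 1 was high for SOD2 (389 CPM, others 160 to 194 CPM) and low for SASH1 (44.7 CPM, others 61.3 to 64.4 CPM). WT replicate 2 was high for IFNGR1 (15.6 CPM, others 12.3 to 12.8 CPM). The groups of 3 inhibitor libraries were not examined in this way.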

How the results depend on the processing

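The count of members lower in KDAC8H143A was 36 to 45 under all alternatives, with 42 to 43 when each library was left out. Calls over all genes are not set beside the counts in this section, so these are not read as results about the members. Its median was -0.90 with total count alone (all genes 0.36), -0.89 with the GC and length correction and -0.89 with the replicate block and that correction, and the sum of the members was 0.601 times WT with total count and 0.597 times WT when scaled by length. In KDAC6H216A, DESeq2 gave 1 call and total count 1, and leaving out libraries gave 0 to 12 (12 without replicate 1). In KDAC6H611A, total count gave 1 call and an absolute log2 fold change of at least 1 gave 1, MARCKS in both. An adjusted p below 0.05 gave 11, one fit over 6 groups gave 11, and leaving out libraries gave 4 to 11. For Tubastatin A, the fold minimum left 1 call, MARCKS, and one fit over 6 groups 14. Its median was 0.47 with total count, 0.22 without a filter, 0.23 over 6 groups, 0.03 with the GC and length correction and 0.02 with the replicate block and that correction. For PCI-34051, the fold minimum left 2 calls, MARCKS and NCOA7, and one fit 12. Its median was 0.42 with total count and -0.08 with the replicate block and the correction. MARCKS was not set aside in the counts of this section, and its calls are not used as tests. Where the scaling or the number of libraries is not itself the change, the cause was not tested.

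With the replicate block the counts of calls were 43 in KDAC8H143A, 0 in KDAC6H216A, 5 in KDAC6H611A, 26 with Tubastatin A and 29 with PCI-34051, although the replicate numbers do not pair the samples.

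Among the called members and the 3 lowest and 3 highest in KDAC8H143A, few directions turned. In KDAC8H143A, SOD2 was at -0.03 with the GC and length correction and -0.03 with the block added, and leaving out libraries gave 0.00 to 0.17 for SOD2 and -0.02 to 0.18 for MAP7. With total count, Tubastatin A values were 0.03 for SOD2, 0.13 for SGK1, 0.05 for NUP43, 0.04 for SYNE1, 0.03 for WTAP and 0.10 for SCAF8, and PCI-34051 values 0.09 for EPB41L2, 0.05 for SASH1, 0.05 for TBP, 0.18 for SGK1, 0.17 for NUP43, 0.11 for REPS1, 0.14 for WTAP and 0.12 for UTRN. For these members, leaving out a library kept direction and call in 813 cases, lost the call in 29 and turned the direction in 2, and the other alternatives did so in 1174, 163 and 16 cases. Members that were not called also turned with the GC and length correction: 2 of 50 in KDAC8H143A (SOD2 and L3MBTL3, the latter from -0.15 to 0.34), 8 of 50 in KDAC6H216A, 4 of 51 in KDAC6H611A, 4 of 51 with Tubastatin A (HBS1L from 0.16 to -0.06, BCLAF1 from 0.05 to -0.21) and 6 of 51 with PCI-34051 (HBS1L from 0.07 to -0.11, BCLAF1 from 0.06 to -0.15, VTA1 from 0.12 to -0.05), and 0 called members did so.

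Only 1 KDAC8H143A line was sequenced, WT held the shallowest library, and levels of MARCKS, TPD52L1 and MAP7 rest on few counts.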
